A study of Homo sapiens with 24 samples.

Results

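The comparison described here set cells lacking the Hippo kinases LATS1 and LATS2 against cells lacking the small GTPases RAP2A, RAP2B and RAP2C, with both lines growing on a soft gel of 1 kPa. It covered 6 of the 24 RNA libraries of the series, 3 titled LATS1/2-dKO on 1 kPa (LATS dKO) and 3 titled RAP2A/B/C-tKO on 1 kPa (RAP2 tKO). Genes entered where FPKM, a fragment count scaled to transcript length and library size, was at least 1 in 3 or more of these 6 libraries, which left 14429 of 58266 gene symbols. All libraries came from HEK293A, an adherent subline of the HEK293 human embryonic kidney cell line, grown on fibronectin-coated hydrogels in DMEM with 10% FBS. The remaining libraries came from wild type (WT) cells and from YAP/TAZ-dKO cells (YAP/TAZ dKO) on 1 kPa, and from all 4 genotypes on 40 kPa, with 3 libraries in each of the 8 groups. All 6 compared libraries shared the soft gel, the coating, the serum and the parental line, and none carried a control edit that the labels name. The labels do not say by which method each line was made or from how many clones, so a difference between the genotypes and a difference between clones cannot be told apart. The series design calls the replicates biological, but what separates them (a dish, a passage, a day) is not stated in the labels, and the p-values measure the spread between these samples.

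In the Hippo pathway the kinases MST1 and MST2 and the MAP4K kinases activate LATS1 and LATS2, which phosphorylate the coactivators YAP and TAZ (gene WWTR1) and keep them out of the nucleus. Free of that restraint, YAP and TAZ bind TEAD transcription factors and raise genes such as CTGF, CYR61 and ANKRD1. RAP2 GTPases are known as signals of a soft matrix that act on MAP4K kinases upstream of LATS, so loss of RAP2 and loss of LATS remove 2 steps of the same pathway. The comparison asks how far the transcriptomes of the 2 lines differ when the matrix itself is soft.

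The 6 libraries held an estimated 25.6 to 33.2 M fragments each, and 14254 to 14378 genes per library reached an FPKM of at least 1. Between replicates of a line the log2(FPKM + 1) differences had an SD of 0.384 to 0.427, and between the lines one of 0.487 to 0.555. Several markers expected in the line were present in all 6 libraries, with the keratin KRT8 at 255 to 487 FPKM and vimentin (VIM) at 217 to 245. The neural cadherin CDH2 was at 29.3 to 33.1 FPKM and the kidney factor WT1 at 12.3 to 15.5. Other expected markers were not: the kidney factors PAX2 and PAX8 stayed below 0.4 FPKM and the neurofilament NEFM below 0.1. The kidney factor LHX1 was low, and lower in LATS dKO, as given below. Among 19 neuronal markers 9 passed the filter, 1 of them higher and 4 lower in LATS dKO, beside 16.6% and 19% of all genes. The summed level of this list was 841 to 863 FPKM in LATS dKO and 793 to 843 in RAP2 tKO. Most markers of endothelial cells, leukocytes and fibroblasts were at or near 0. No endothelial marker matched by symbol passed the filter (PECAM1 had no match, summed level at most 1.38 FPKM in LATS dKO). PTPRC and CD3E of leukocytes were at 0, and DCN of fibroblasts was at 0. Of 12 immune markers 2 passed the filter (summed level 5.38 to 5.61 FPKM in LATS dKO and 7.12 to 9.39 in RAP2 tKO), and of 10 fibroblast markers PDPN alone did, at 70.5 to 74.8 and 52.6 to 55.9 FPKM. Their part in the results was not tested.

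The targeted genes were read first. LATS1 (ENSG00000131023.12, hg19 chromosome 6, 149979289 to 150039392) stood at 4.97, 5.04 and 5.53 FPKM in LATS dKO and at 11.9, 14 and 13.5 in RAP2 tKO. The LATS dKO libraries were all lower, by 1.19 ± 0.08 (SE) on the log2 scale (adjusted p = 2.23e-06), and WT stood at 12.9 ± 1.02 (SD, n = 3). LATS2, itself a YAP target, did not overlap between the lines but missed the threshold, at 3.24, 2.94 and 3.38 against 3.67, 4.24 and 5.0 FPKM (difference -0.33 ± 0.14, adjusted p = 0.0802). RAP2A stood at 5.76, 5.96 and 7.35 FPKM in RAP2 tKO and at 9.32, 9.54 and 8.24 in LATS dKO (difference 0.45 ± 0.09, adjusted p = 0.00314). RAP2B was not low in RAP2 tKO, at 5.53, 6.04 and 5.64 FPKM against 4.13, 3.88 and 4.08 in LATS dKO (-0.42 ± 0.05, adjusted p = 0.000212). RAP2C reached 17.8, 21.7 and 23.2 FPKM in RAP2 tKO and 28.2, 28.1 and 25.4 in LATS dKO (0.37 ± 0.10, adjusted p = 0.0123), but it lies in a stretch of chromosome X where 37 of 50 genes were higher in LATS dKO, and after correction for position its difference was -0.15. A small edit can leave the RNA of a disrupted gene in place, so the levels of LATS2, RAP2B and RAP2C do not check the labels. YAP1 (31.0, 32.4 and 30.2 against 30.2, 32.8 and 33.3 FPKM) and WWTR1 (26.2, 24.8 and 24.5 against 23, 26.8 and 32.0 FPKM) overlapped between the lines and were not called (adjusted p = 0.580 and 0.557).

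Across all genes the lines differed widely but mostly by little. A gene was called where limma's adjusted p was below 0.05, and 5147 of 14429 genes were (35.7%), 2399 higher in LATS dKO (16.6%) and 2748 lower (19%). Of the 14429 genes, 274 (1.9%) were called and differed by at least 2-fold, 152 higher and 122 lower. The 3 libraries of one line lay wholly above or below those of the other in 6985 genes (48.4%). Against WT on the same gel, 4930 genes were called in LATS dKO (34.2%) and 2152 in RAP2 tKO (14.9%). Counts of list members throughout stand beside these shares of 16.6% and 19%. Genes below 1 FPKM throughout LATS dKO or throughout RAP2 tKO passed the filter through the other line alone, which fixed their direction. Differences below are LATS dKO minus RAP2 tKO, on the scale of log2(FPKM + 1), which understates the change of genes with low FPKM.

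**Figure D1:**
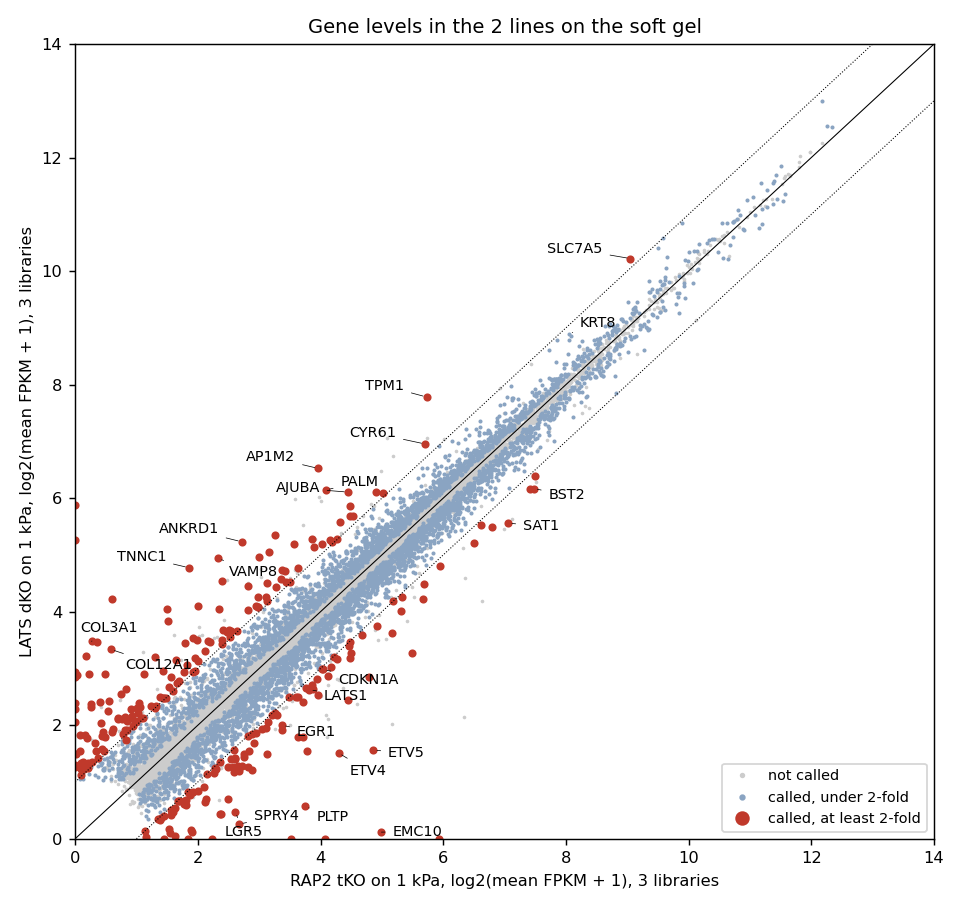
Mean level of each of 14429 genes in RAP2 tKO (x axis) and LATS dKO (y axis) on 1 kPa, as log2(mean FPKM + 1) of 3 libraries. The solid line marks equal levels and the dotted lines 2-fold on this scale. The 274 called genes beyond 2-fold (red) lie on both sides, COL3A1, ANKRD1 and TPM1 above and EMC10, ETV5 and ETV4 below, and the red points on the axes are short RNAs listed at 0 in one line.

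Targets of YAP, TAZ and TEAD were on balance higher in LATS dKO than in RAP2 tKO, although RAP2 tKO itself stood above WT for the best known of them. Of the 20 tested genes of a YAP, TAZ and TEAD signature, 11 were higher in LATS dKO, 1 was lower and 8 were not called, with a median difference of 0.37 against -0.01 over all genes. TGFB2, counted among those higher, passed the filter through LATS dKO alone. Both members not tested, AXL and NT5E, failed the filter on low values, and AXL was listed at 0.624 to 1.22 FPKM in LATS dKO and 0.322 to 0.411 in RAP2 tKO. Among 18 tested genes of a second list of reported targets, 10 were higher and 2 lower (median 0.42).

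CTGF, a secreted matricellular protein and the standard YAP reporter, stood at 67.9, 70.2 and 74.0 FPKM in LATS dKO and 38.4, 37.0 and 37.9 in RAP2 tKO. Its WT level was 6.55 ± 0.367 and its YAP/TAZ dKO level 0.230 ± 0.0278 FPKM (SD, n = 3), so both edited lines lay far above WT and LATS dKO highest (difference between the 2 lines 0.89 ± 0.05, adjusted p = 1.14e-06). CYR61, its close relative, showed a wider gap, at 118, 121 and 130 FPKM against 51.7, 51.5 and 50.1 (1.25 ± 0.05, adjusted p = 1.26e-07), with WT at 14.8 ± 0.932. ANKRD1, a muscle ankyrin repeat protein, had the widest gap of the signature, at 38.7, 34.4 and 36.6 FPKM against 5.06, 5.80 and 5.85 (2.52 ± 0.10, adjusted p = 5.26e-08), while WT held 0.877 ± 0.239.

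AMOTL2, a scaffold that binds YAP, lay nearer in the 2 lines, at 62.8, 67.3 and 66.6 FPKM against 45.2, 45.1 and 39.1 (0.59 ± 0.13, adjusted p = 0.00436), and far above the 9.18 ± 1.71 of WT in both. TGFB2, a ligand of the TGF-beta receptors, behaved differently, with 3.17, 4.23 and 2.57 FPKM in LATS dKO against 0.552, 0.609 and 0.948 in RAP2 tKO (1.33 ± 0.15, adjusted p = 8.67e-05) and 0.605 ± 0.120 in WT. MYOF, a membrane repair protein, held 5.84 ± 0.208 against 2.25 ± 0.0652 FPKM (1.07, adjusted p = 7.54e-06). The remaining higher members were CRIM1 (0.84), CCDC80 (0.68), PTPN14 (0.45), ARHGEF17 (0.43) and ASAP1 (0.21, adjusted p = 0.0440). ASAP1 lost its call in 9 of 16 alternative settings of the fit (filters, corrections, other sets of libraries), ARHGEF17 with all 24 libraries in the fit and PTPN14 without replicate 2 of LATS dKO. FOXF2, the member that was lower (-0.34, adjusted p = 0.00174), had no call after the correction for GC content or for position. IGFBP3 (1.45, 1.30 and 1.47 against 1.42, 1.45 and 1.71 FPKM), GADD45A, F3, FJX1, DOCK5 and RBMS3 overlapped between the lines, and LATS2 and NUAK2 did not overlap but were not called either.

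The promoter sequences of CTGF and ANKRD1 are shown because both hold the core letters of the TEAD binding motif, GGAATG (read on both strands as GGAATG or CATTCC), which 4175 of 35116 RefSeq promoter windows of the same 250 bases hold (11.9%). Each is the stretch before the annotated start, 5′ to 3′ on the strand of the gene, with the motif in capitals, from RefSeq on build GRCh38.p14. CTGF (RefSeq symbol CCN2, chr6:131951373-131951622, minus strand) holds 3 matches, which begin 169, 104 and 95 bases before the start, and ANKRD1 (chr10:90921088-90921337, minus strand) holds 2, at 220 and 128 bases. A match describes letters in this window and was not tested for binding.
CTGF: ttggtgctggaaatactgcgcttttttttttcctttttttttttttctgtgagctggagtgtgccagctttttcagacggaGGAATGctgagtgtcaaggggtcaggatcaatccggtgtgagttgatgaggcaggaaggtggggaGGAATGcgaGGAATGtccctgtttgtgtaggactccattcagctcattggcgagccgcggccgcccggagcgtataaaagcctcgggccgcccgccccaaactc
ANKRD1: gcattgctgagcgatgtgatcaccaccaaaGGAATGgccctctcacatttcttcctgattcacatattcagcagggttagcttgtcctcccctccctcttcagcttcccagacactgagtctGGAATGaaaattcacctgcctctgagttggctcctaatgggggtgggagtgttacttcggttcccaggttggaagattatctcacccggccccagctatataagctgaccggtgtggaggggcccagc

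In the second list of targets AJUBA, a LIM domain inhibitor of the LATS kinases, led with 66.5, 66.1 and 71.1 FPKM in LATS dKO and 22.6, 20.2 and 19.5 in RAP2 tKO (1.66 ± 0.11, adjusted p = 1.83e-06), both above the 6.90 ± 0.535 of WT. THBS1, a matrix glycoprotein, stood at 3.76, 4.34 and 3.65 FPKM against 0.601, 0.600 and 1.83 (1.34, adjusted p = 0.000358), and the caveolar coat protein CAV1 at 53.9, 57.8 and 53.5 against 24.6, 28.2 and 31.1 (0.96 ± 0.08, adjusted p = 9.17e-06). CAV1 in RAP2 tKO was not above the 33.2 ± 1.97 of WT. Lower in LATS dKO were the ephrin receptor EPHA2 (28.8 against 40.2 FPKM, -0.46) and the guidance ligand SLIT2 (46.1 against 69.2, -0.57). BIRC5, LMNB2, EMP2, AMOTL1, GLI2 and FSTL1 were not called.

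**Figure D2:**
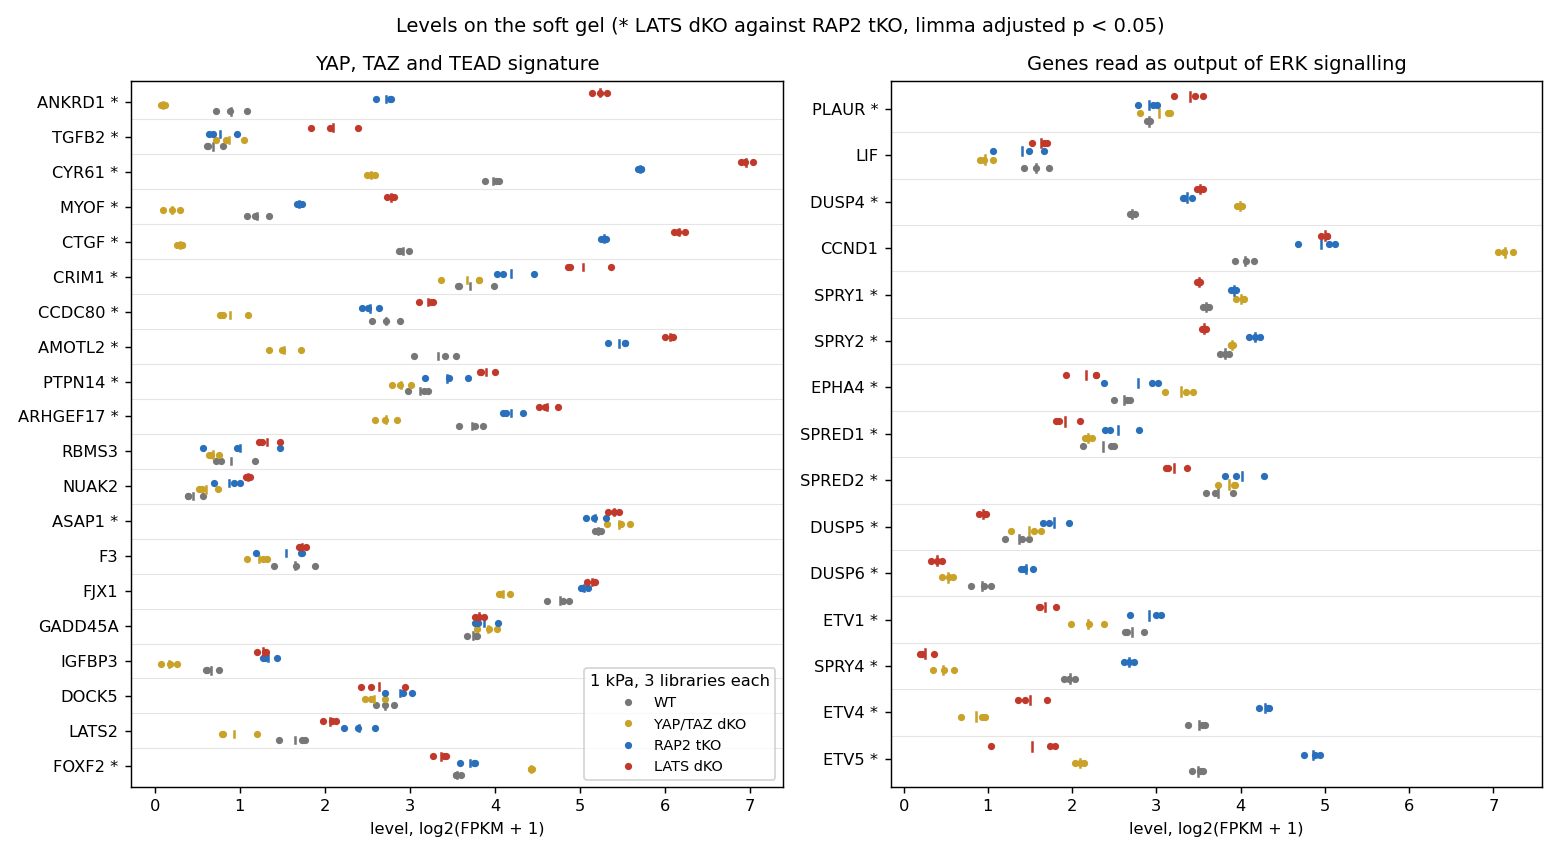
Level of each gene in every library on 1 kPa (x axis, log2(FPKM + 1)) for the 20 tested genes of the YAP, TAZ and TEAD signature and 15 tested genes read as ERK output, with points for the 3 libraries of each genotype and ticks for their means. ANKRD1, CYR61 and CTGF rise in steps from YAP/TAZ dKO through WT and RAP2 tKO to LATS dKO, whereas ETV5, ETV4 and SPRY4 are highest in RAP2 tKO and lowest or nearly so in LATS dKO.

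Within the Hippo pathway itself 13 of 33 tested genes were higher in LATS dKO and 2 were lower (LATS1 and MAP4K2), with a median of 0.18. Parts of the output arm were among those higher: TEAD1, the DNA-binding partner of YAP, at 32.4, 32.2 and 32.5 against 18.9, 20.1 and 21.7 FPKM (0.65 ± 0.06, adjusted p = 2.22e-05), and TEAD4 at 53 ± 1.51 against 47.1 ± 1.75 (0.17, adjusted p = 0.0160). The call of TEAD4 was lost with all 24 libraries in the fit (largest adjusted p of the 16 settings 0.275) and without replicate 3 of LATS dKO or replicate 2 or 3 of RAP2 tKO. WTIP, an AJUBA family LIM protein, stood at 12.4, 11.2 and 11.3 against 5.68, 5.71 and 5.76 FPKM (0.91 ± 0.08, adjusted p = 1.37e-05) and LIMD1 of the same family at 22.2 against 17.4 (0.33). Upstream, the atypical cadherin FAT4 (0.54), NF2 (0.27), the adaptor SAV1 (0.31), the scaffold RASSF1 (0.20), and the kinases MAP4K5 (0.35), TAOK3 (0.40) and STK38 (0.20) were higher. SAV1 lost the call in 8 and TAOK3 in 10 of the 16 settings, both with most single libraries left out, and RASSF1 and STK38 lost it with all 24 libraries in the fit. AMOT (7.91 ± 0.776 against 3.76 ± 0.160 FPKM, 0.90) lies on chromosome X among 50 genes with a median of 0.59. After correction for position its difference was 0.36 (adjusted p = 0.0276). FAT1 was not tested because of its quantification status. MAP4K2 (13 against 16.7 FPKM, -0.34, adjusted p = 0.0231) lost its call in 6 of the 16 settings, among them all 24 libraries in the fit, the correction for position and the fits without replicate 1 or 3 of LATS dKO or replicate 3 of RAP2 tKO.

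RAP genes showed no common direction, with 4 of 24 tested members higher in LATS dKO, 5 lower and a median of 0.03. These counts are near the 16.6% and 19% of all genes. They include the targeted genes, RAP2A and RAP2C as higher and RAP2B as lower. RAPGEF3 (EPAC1), a cAMP-driven exchange factor for RAP1 and RAP2, had the widest difference, at 3.47, 3.43 and 3.19 FPKM in LATS dKO and 1.25, 1.11 and 0.956 in RAP2 tKO (1.05 ± 0.10, adjusted p = 2.52e-05). WT held 0.739 ± 0.200, so the higher level was in LATS dKO. TNIK, a kinase that RAP2 binds, went the other way, at 6.74, 5.14 and 4.77 FPKM against 10.0, 10.3 and 15.5 (-0.97 ± 0.16, adjusted p = 0.000804), with WT at 11.2 ± 0.288. RAP1B (-0.56), RALB (-0.36) and RAP1GAP (-0.34) were lower in LATS dKO and PLCE1 (0.32) higher, and RAP1GAP and PLCE1 lost the call when single libraries were left out, RAP1B with all 24 libraries in the fit. The exchange factor RALGDS was not tested for its status.

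Actin cytoskeleton genes under the control of SRF and its cofactor MRTF were mostly higher in LATS dKO, 13 of 22 tested members against 4 that were lower, with a median of 0.28. TPM1, an actin-binding tropomyosin, stood at 209, 228 and 220 FPKM in LATS dKO and 60.0, 48.2 and 47.7 in RAP2 tKO (2.06 ± 0.10, adjusted p = 2.90e-07). RAP2 tKO lay near the 41.4 ± 5.50 of WT and was not called against it (adjusted p = 0.0557). CNN2, the calponin that stabilizes actin filaments, gave 55.2, 55.7 and 59.9 against 21.3, 21.2 and 21.6 FPKM (1.37 ± 0.06, adjusted p = 1.08e-07), with WT at 11.1 ± 0.708 and RAP2 tKO between the WT and LATS dKO libraries. The actin crosslinker FLNA (447 to 472 against 257 to 287 FPKM, 0.77) and the LIM protein FHL1 (205 to 229 against 127 to 134, 0.74) lie on chromosome X among genes with medians of 0.40 and 0.49, and stood 0.35 and 0.26 higher after correction for position.

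FHL2, a LIM cofactor, was at 26.1 ± 0.595 against 16.4 ± 0.628 FPKM (0.64), TUFT1 at 13 ± 0.860 against 7.22 ± 0.351 (0.77) and the myosin regulator CALD1 at 43.8 against 29.2 (0.57). MYH9, ZYX, ACTN1, TAGLN, TAGLN2 and CNN3 were also higher, by 0.23 to 0.77. Not every contractile gene took that direction: the actins ACTG1 (2369, 2407 and 2466 against 3162, 2903 and 2841 FPKM, -0.30) and ACTA2 (-0.52), the focal adhesion protein VCL (-0.36) and TGFB1I1 (-0.49) were lower in LATS dKO. SRF itself, ACTB, TPM2, TPM4 and PDLIM7 were not called.

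The promoter of CNN2 is shown for a CArG box, the site that SRF binds, which only 407 of the 35116 windows hold (1.16%, both strands), and that of EGR1, a gene with the opposite difference described below, for 2 such boxes. The matches, in capitals, begin 89 bases before the start in CNN2 (chr19:1026358-1026607, plus strand, GRCh38.p14) and 105 and 83 bases before it in EGR1 (chr5:138465229-138465478, plus strand). As above, they are letters in a window and not tested sites.
CNN2: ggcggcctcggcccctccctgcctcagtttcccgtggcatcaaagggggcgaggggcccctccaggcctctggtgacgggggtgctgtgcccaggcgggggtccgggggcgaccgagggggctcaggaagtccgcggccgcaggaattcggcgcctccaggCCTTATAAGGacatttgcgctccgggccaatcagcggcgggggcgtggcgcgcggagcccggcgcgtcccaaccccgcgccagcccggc
EGR1: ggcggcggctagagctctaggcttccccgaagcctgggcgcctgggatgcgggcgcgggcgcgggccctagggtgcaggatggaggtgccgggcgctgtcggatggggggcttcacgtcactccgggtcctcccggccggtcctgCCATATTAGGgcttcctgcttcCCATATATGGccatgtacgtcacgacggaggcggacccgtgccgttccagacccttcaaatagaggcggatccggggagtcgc

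Genes read as output of ERK signalling were mostly lower in LATS dKO. Of 15 tested members, 11 were lower in LATS dKO than in RAP2 tKO, 2 were higher and the median was -0.63. Of those lower, SPRY4, DUSP6 and DUSP5 passed the filter through RAP2 tKO alone, so their direction was fixed by entry. ETV5, an ETS transcription factor induced by ERK, fell to 1.05, 2.48 and 2.34 FPKM in LATS dKO against 26.0, 28.5 and 29.8 in RAP2 tKO (-3.34 ± 0.17, adjusted p = 3.42e-07). WT lay between, at 10.3 ± 0.494 FPKM, lower than RAP2 tKO (1.36, adjusted p = 0.000591) and higher than LATS dKO (-1.98, adjusted p = 1.11e-05). ETV4, its close relative, repeated the pattern with 1.57, 1.72 and 2.25 against 19.1, 19.2 and 17.6 FPKM (-2.79 ± 0.11, adjusted p = 5.26e-08) around 10.3 ± 0.826 in WT. The feedback inhibitor SPRY4 did so too, at 0.159, 0.148 and 0.284 against 5.13, 5.37 and 5.67 FPKM (-2.42 ± 0.09, adjusted p = 4.78e-08) and 2.92 ± 0.183 in WT.

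DUSP6, the phosphatase that switches ERK off, stood at 0.321, 0.373 and 0.251 against 1.62, 1.91 and 1.69 FPKM (-1.06 ± 0.09, adjusted p = 1.20e-05), with WT at 0.910 ± 0.151. ETV1 (-1.24), DUSP5 (-0.83), SPRED2 (-0.81), SPRED1 (-0.63), EPHA4 (-0.62), SPRY2 (-0.61) and SPRY1 (-0.42) completed those lower. PLAUR (0.49) and DUSP4 (0.16) were higher in LATS dKO, and CCND1 and LIF were not called. SPRY4, ETV4 and ETV5 were also low in YAP/TAZ dKO, at 0.391 ± 0.119, 0.818 ± 0.189 and 3.26 ± 0.167 FPKM, so a low level of these 3 genes was shared by the line without LATS and the line without YAP and TAZ.

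Immediate early genes, which respond within minutes to growth factors and mechanical stimuli, were lower in LATS dKO in 12 of 22 tested members and higher in 3 (median -0.51). EGR1, a zinc finger factor, was at 2.77, 3.04 and 3.17 FPKM in LATS dKO and 9.24, 8.72 and 10.2 in RAP2 tKO (-1.38 ± 0.09, adjusted p = 1.71e-06). WT held 3.57 ± 0.270, and the larger departure from it was in RAP2 tKO (1.18, adjusted p = 2.65e-05; LATS dKO -0.19, adjusted p = 0.111). FOS behaved likewise, at 2.58, 2.08 and 3.77 against 7.70, 6.03 and 8.12 FPKM (-1.14, adjusted p = 0.000454) around a WT level of 3.54, as did JUNB (3.69, 4.83 and 5.37 against 10.5, 9.80 and 10.1 FPKM, -0.99, adjusted p = 0.000342) around 5.71.

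IER2 (-0.86), NR4A1 (-0.74), IER5 (-0.71) and FOSL1 (-0.64) were lower as well. The phosphatase DUSP1 differed in the other direction, at 35.6, 35.5 and 38.3 against 17.9, 17.6 and 15.9 FPKM (1.05 ± 0.05, adjusted p = 2.79e-07), with ATF3 (54.1 ± 0.528 against 32.9 ± 2.31 FPKM, 0.70) and JUN (0.23). MYC, KLF4, KLF6, IER3 and BTG2 were not called.

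The largest differences of all, among genes without overlap and with a mean of at least 5 FPKM in the higher line, held several matrix genes that were near 0 in WT. COL3A1, a fibrillar collagen chain, was at 8.91, 11.2 and 10.3 FPKM in LATS dKO and at 0.145, 0.172 and 0.296 in RAP2 tKO (3.21 ± 0.09, adjusted p = 1.29e-08), with WT at 0.146 ± 0.0231. PROK1, a secreted prokineticin (9.87, 10.9 and 9.40 against 0.304, 0.365 and 0.174 FPKM, 3.11), EDIL3, an integrin ligand (8.91, 8.01 and 8.14 against 0.148, 0.154 and 0.0785, 3.05), and OLFML1 (2.68) were also far higher in LATS dKO. TNNC1, the cardiac calcium sensor, was at 25.2, 26.7 and 27.2 against 3.01, 2.48 and 2.36 FPKM (2.92 ± 0.11, adjusted p = 4.78e-08), and RAP2 tKO was above the WT level of 1.07 ± 0.05.

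COL12A1 (8.77, 9.89 and 8.62 against 0.385, 0.656 and 0.458 FPKM, 2.75), the ERBB ligand NRG1 (5.89, 6.90 and 6.62 against 0.456, 0.262 and 0.484, 2.42), the matrilin MATN2 (11.8, 15.5 and 12.4 against 1.10, 1.45 and 2.97, 2.37) and the proteoglycan LUM (8.47, 7.92 and 8.12 against 1.61, 1.68 and 1.14, 1.90) followed. Also in this group were the folate receptor FOLR1 (1.81), the keratin KRT17 (1.78), GPRC5A (1.90), WFDC21P (2.15) and, on chromosome X among genes with a median of 0.49 and 0.59, PLAC1 (2.11) and the pseudogene UPF3BP2 (2.11), whose WT libraries scattered widely (26.2 ± 20 FPKM).

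Some genes departed from WT further in RAP2 tKO than in LATS dKO. VAMP8, a SNARE of the endosome, was at 29.1, 30.6 and 29.4 FPKM in LATS dKO and 21.7 ± 2.19 in WT but at 3.72, 4.24 and 4.16 in RAP2 tKO (LATS dKO minus RAP2 tKO 2.61 ± 0.12, adjusted p = 1.87e-07). PALM, a lipid-anchored membrane protein, was at 70.0, 68.8 and 70.5 FPKM in LATS dKO and 87.6 ± 9.71 in WT against 18.1, 15.3 and 14.6 in RAP2 tKO (2.06 ± 0.10, adjusted p = 2.11e-07).

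EMC10, a subunit of the endoplasmic reticulum membrane protein complex, gave the largest difference among the named genes. It was at 0.0813, 0.0624 and 0.111 FPKM in LATS dKO against 32.9, 30.0 and 29.6 in RAP2 tKO, 26.8 ± 8.85 in WT and 24.8 ± 1.81 in YAP/TAZ dKO (-4.87 ± 0.17, adjusted p = 4.78e-08). The 40 kPa libraries of the 2 lines, which the 1 kPa comparison does not use, gave -4.46. PLTP, a phospholipid transfer protein (0.633, 0.405 and 0.412 against 13.5, 12.4 and 11.5 FPKM, -3.18), came next after ETV5, on a chromosome (20) whose genes had a median of -0.28. LGR5, a receptor for R-spondins and a Wnt target, was at 0.350, 0.343 and 0.462 against 5.33, 4.41 and 5.59 FPKM (-2.14 ± 0.08, adjusted p = 4.78e-08), with WT at 6.83 ± 0.343 and YAP/TAZ dKO at 28.6 ± 0.518.

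Further down stood developmental transcription factors: DMRT3 (4.68, 4.0 and 4.73 against 20.9, 20 and 21.8 FPKM, -2.0), ZNF503 with its antisense neighbour ZNF503-AS2 (-1.93 and -1.63) and ZIC1 (-1.39). Reads of ZNF503 and ZNF503-AS2 may be shared, since no source names the strand setting. BOC, a hedgehog coreceptor (-1.85), PARM1 (-1.68), the polyamine enzyme SAT1 (47.7, 45.6 and 45.3 against 139, 123 and 136 FPKM, -1.5), ZNF880 (-1.47), the protease PRSS23 (-1.46), TMBIM1 (-1.45), the proapoptotic BMF (-1.44), EMILIN3 (-1.37, also on chromosome 20) and MAFG-AS1 (-1.34) closed the list.

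Epithelial markers were higher in LATS dKO in 8 of 10 tested genes and lower in none (median 0.93). AP1M2, the epithelial clathrin adaptor subunit, was at 90.4, 100 and 82.6 FPKM against 19.3, 12.5 and 12 (2.59 ± 0.15, adjusted p = 8.33e-07), with RAP2 tKO near the 12.8 ± 0.554 of WT and YAP/TAZ dKO at 0.0672 ± 0.0652. The simple epithelial keratins KRT8 (487, 484 and 452 against 279, 255 and 258 FPKM, 0.84) and KRT18 (441, 451 and 427 against 262, 265 and 268, 0.73) rose in both lines over the 141 ± 5.97 and 144 ± 8.04 of WT. KRT19 (36.5, 31.2 and 34.9 against 14.4, 14.6 and 12.7 FPKM, 1.24) did so in LATS dKO, while RAP2 tKO was not called against WT (adjusted p = 0.235). RBM47 (1.23), CLDN7 (1.15), SPINT2 (1.01) and ESRP2 (0.23) completed the 8, and the defining genes CDH1 and EPCAM stayed at or below 0.437 and 0.129 FPKM. Keratins have near-identical pseudogene copies, and no source says how reads with several matches were counted.

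Mesenchymal transition markers were split, with 2 of 9 higher and 3 lower, beside 16.6% and 19% of all genes. TWIST2 (-0.84), TWIST1 (-0.63) and VIM (-0.11, a call lost in several alternatives) were lower. ZEB2 (0.39) and S100A4 (0.31, lost after correction for position and in 4 further settings) were higher. Annexins and S100 proteins, calcium-dependent membrane binders, were higher in 8 of 13 (median 0.25). S100A10 was at 445, 426 and 449 against 233, 222 and 236 FPKM (0.93 ± 0.04, adjusted p = 2.11e-07), ANXA1 at 49.9, 52.4 and 48.9 against 20.5, 22.4 and 21.2 (1.20), ANXA3 at 48.6, 42.7 and 49.7 against 20.4, 17.1 and 19.3 (1.27) and ANXA2 at 217 ± 8.55 against 140 ± 9.44 (0.64). S100A16 was lower (1.01 ± 0.161 against 2.37 ± 0.337 FPKM, -0.74), with RAP2 tKO above the 0.814 ± 0.150 of WT. Caveolar genes gave PTRF (cavin 1; 23.8, 23.8 and 23.4 against 12.4, 12.5 and 11.7 FPKM, 0.90) and CAV2 (0.66) as higher among 6 tested.

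Matrix proteins differed in both directions, 16 of 40 tested higher and 9 lower (median 0.19). Among those higher, COL3A1, COL12A1 and COL5A2 passed the filter through LATS dKO alone, so their direction was fixed by entry. Besides those named above, the higher ones held COL9A3 (1.63, against the direction of chromosome 20), the fibrillar chain COL5A2 (5.16, 5.80 and 3.57 against 0.807, 0.700 and 0.560 FPKM, 1.77), the basement membrane chains COL4A6 (1.17, on chromosome X) and LAMA5 (117, 122 and 123 against 59.7, 65.4 and 55.2 FPKM, 1.00), LAMB3 (1.05), fibronectin FN1 (0.83), FBN2 (0.67) and SPARC (0.30). Lower were the microfibril protein MFAP2 (14.6 against 27.8 FPKM, -0.89), the proteoglycan VCAN (5.87 against 11.6, -0.88), COL5A1 (-0.81), FBLN1 (-0.64) and FBN1 (-0.52).

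Of 33 tested integrins and adhesion adaptors, 10 were higher and 8 lower (median 0.16), beside 16.6% and 19% of all genes. TNS3, a tensin of focal adhesions, was at 14.8, 15.2 and 16.2 against 5.79, 6.26 and 5.99 FPKM (1.23 ± 0.05, adjusted p = 1.26e-07), the scaffold NEDD9 at 1.92, 2.22 and 1.5 against 0.482, 0.626 and 0.581 (0.88), ITGB8 at 1.87 ± 0.104 against 0.893 ± 0.0682 (0.60) and the syndecan SDC2 at 138 ± 2.98 against 94.4 ± 3.12 (0.54). SDC3 (-0.85) and the kindlin FERMT1 (-0.69, on chromosome 20) were lower. Cadherins and protocadherins had 2 of 10 higher (CDH24, CDH3) and 3 lower (CELSR2, CELSR1, PCDH9), none by more than 0.58. The same shares of all genes apply to these counts. CELSR1 lost its call in 12 of the 16 settings, CDH24 with all 24 libraries in the fit, and PCDH9 without replicate 1 of LATS dKO or replicate 3 of RAP2 tKO.

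Developmental signalling genes leaned lower in LATS dKO. Notch receptors, ligands and targets gave 10 of 15 lower and 3 higher (median -0.47). The receptor NOTCH1 was at 6.36, 6.79 and 7.74 against 16, 15.0 and 14.8 FPKM (-1.04 ± 0.12, adjusted p = 0.000106), the ligand DLL1 at 1.42, 1.70 and 1.79 against 4.84, 4.81 and 4.90 (-1.15) and the target HES1 at 16.5, 16.3 and 16.4 against 32.5, 28.7 and 27.7 (-0.82), with HEY2 (-0.70) and NRARP (-0.56) in the same direction. NOTCH1 and NRARP lie at the end of chromosome 9, where 36 of 50 genes were lower (median -0.33, but -0.07 on 40 kPa). NOTCH2 (0.33), NOTCH3 (0.49) and the ligand JAG2 (52.2 ± 1.56 against 33.4 ± 2.68 FPKM, 0.63) were higher. JAG2 and NRARP were not called with all 24 libraries in the fit.

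Wnt feedback genes and targets had 8 of 16 lower and none higher (median -0.24). Besides LGR5 these included the receptor FZD7 (6.57, 6.04 and 6.15 against 16.9, 16 and 16.5 FPKM, -1.27 ± 0.06, adjusted p = 2.89e-07), WNT5B (-0.83), APCDD1 (-0.74), the feedback scaffold AXIN2 (2.80 ± 0.439 against 4.28 ± 0.0855 FPKM, -0.48) and LEF1 (-0.35). Of 20 TGF-beta and BMP targets 4 were higher and 8 lower, beside 16.6% and 19% of all genes. BMP4 was far higher in LATS dKO, at 24.8, 26.2 and 26.0 against 9.0, 10.3 and 8.71 FPKM (1.37 ± 0.10, adjusted p = 5.94e-06) and 5.65 ± 0.720 in WT, whereas the BMP targets ID1 (-0.66), ID3 (-0.39) and BAMBI (-0.34) were lower and ID2 (0.40) higher. ID1 and ID3 lost the call with all 24 libraries in the fit, ID3 also after correction for position. After correction for position 3 members of this list were higher and 3 lower.

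Axon guidance genes gave 10 of 41 higher and 16 lower (median -0.17), led by UNC5B (3.16 ± 0.0673 against 7.79 ± 0.324 FPKM, -1.08) and its ligand NTN1 (5.16 ± 0.0885 against 9.29 ± 0.338, -0.74) as lower and EFNA1 (15.9 ± 0.306 against 6.93 ± 0.392, 1.09), SEMA3B (1.06) and SEMA3D (0.99) as higher. Among kidney lineage factors LHX1 was at 0.898, 1.28 and 0.486 against 3.14, 3.94 and 2.76 FPKM (-1.19), OSR1 (-0.65), SIX2 (-0.35) and GATA3 (-0.31) were lower too, and EYA1 (0.42) was higher. GATA3 lost its call in 10 of the 16 settings, SIX2 with all 24 libraries in the fit and EYA1 after correction for position. HOX genes had 2 of 31 higher and 9 lower, beside 16.6% and 19% of all genes, the largest named difference being -0.47 in HOXB2. HOXC8 and HOXC4 were no longer called after correction for position (-0.04 and -0.05). HOXD11 lost its call in 5 of the 16 settings.

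**Figure D3:**
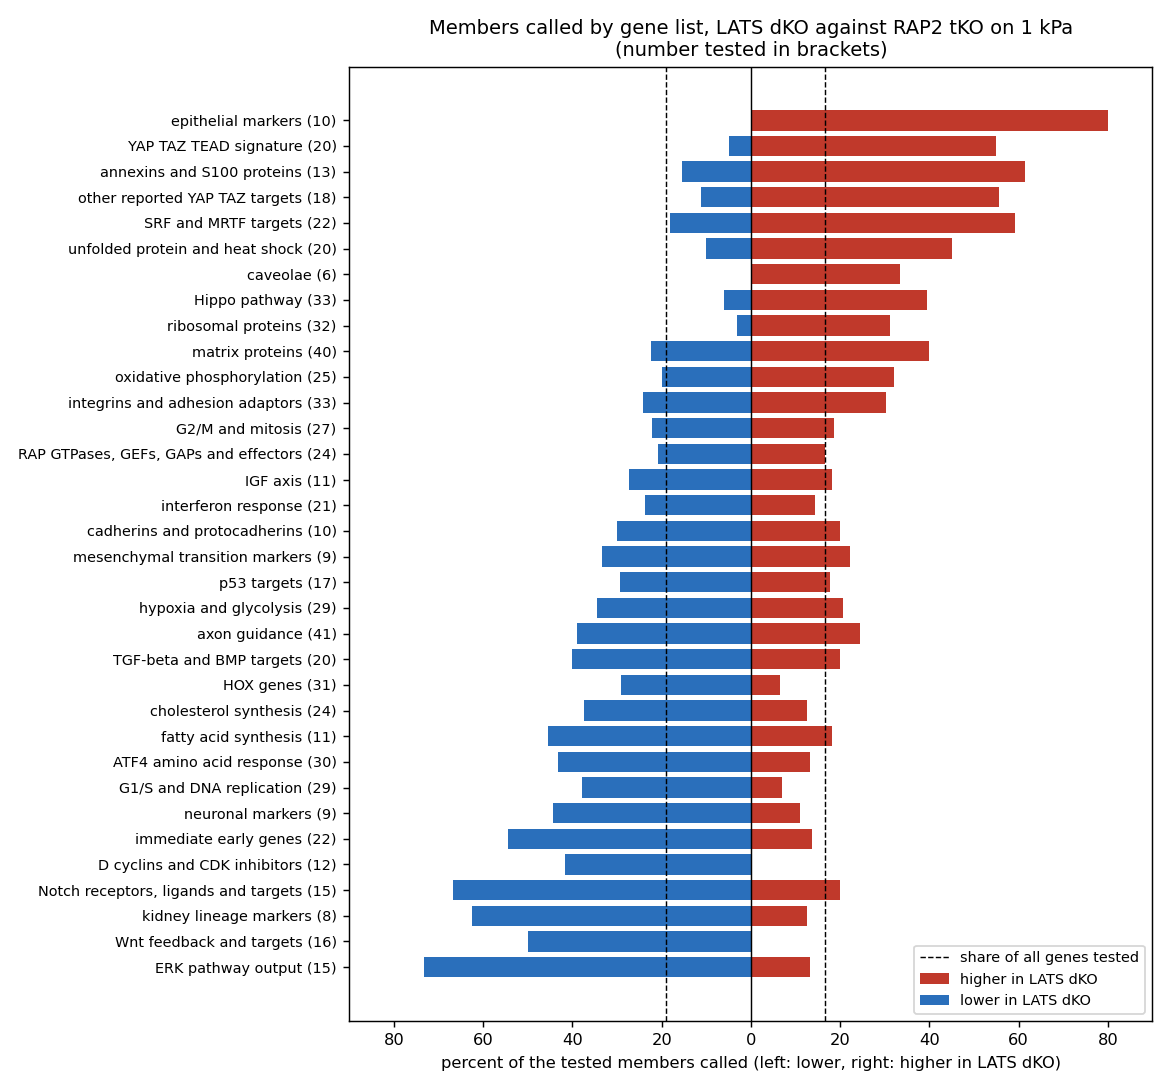
Percent of the tested members of each gene list called higher (red, to the right) or lower (blue, to the left) in LATS dKO than in RAP2 tKO on 1 kPa, for lists with at least 5 tested members. Dashed lines mark the 16.6% and 19% of all genes called higher and lower. Epithelial markers and YAP, TAZ and TEAD targets extend to the right of their line and ERK output, Wnt and Notch genes to the left.

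Of 30 tested genes of the ATF4 response, a stress programme of amino acid supply, 4 were higher and 13 lower (median -0.13). SLC7A5 and SLC3A2, the light and heavy chains of the large neutral amino acid transporter LAT1, were both higher: 1176, 1228 and 1173 against 534, 540 and 514 FPKM for SLC7A5 (1.17 ± 0.04, adjusted p = 4.78e-08), and 1532, 1560 and 1507 against 765, 764 and 778 FPKM for SLC3A2 (0.99 ± 0.05, adjusted p = 2.79e-07). In both genes RAP2 tKO lay below the WT means of 681 and 927 FPKM and LATS dKO above them. TRIB3 (-0.64) and CEBPB (-0.65), both on chromosome 20, and SLC1A4 (-0.57) were lower.

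Lipid synthesis leaned lower in LATS dKO, with 9 of 24 cholesterol genes lower and 3 higher and 5 of 11 fatty acid genes lower and 2 higher. Over all genes 19% were lower and 16.6% higher. FADS2, a fatty acid desaturase, was at 88.7, 84.0 and 91.6 against 161, 154 and 161 FPKM (-0.84 ± 0.05, adjusted p = 9.84e-07), FADS1 at 89.7 ± 4.76 against 142 ± 1.34 (-0.66) and SCD at 93.0 ± 2.27 against 142 ± 6.04 (-0.61). INSIG1, which holds SREBP in the endoplasmic reticulum, was at 31.0 ± 1.94 against 51.6 ± 3.75 FPKM (-0.72), IDI1 at 71.3 ± 2.38 against 114 ± 8.53 (-0.67) and HMGCS1 at 83.5 ± 2.57 against 106 ± 2.03 (-0.35). FDFT1 went the other way (0.86) but lies in the stretch of chromosome 8 with a median of 0.66, and stood 0.33 higher after correction for position. NSDHL (0.43), on chromosome X, and ACSS2 (-0.52), on chromosome 20, were no longer called after that correction. SCD then stood at -0.39, HMGCS1 at -0.23 and IDI1 at -0.80. FASN (-0.45) lost its call in 4 of the 16 settings.

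Of 29 hypoxia and glycolysis genes, 6 were higher and 10 lower, beside 16.6% and 19% of all genes. The neuronal-type glucose transporter SLC2A3 was at 16.6, 20.3 and 17.5 against 7.32, 7.39 and 6.01 FPKM (1.28 ± 0.14, adjusted p = 7.58e-05), in a stretch of chromosome 12 with a median of -0.26. GAPDH (1817 ± 55.6 against 2338 ± 54.2 FPKM, -0.36), PFKM (-0.42), ALDOC (-0.75) and VEGFA (-0.46) were lower. After correction for position GAPDH stood at -0.13 and PFKM at -0.27, and TPI1 (-0.28) was no longer called. Unfolded protein and heat shock genes had 9 of 20 higher and 2 lower (median 0.14), with CANX (0.48), HSPA5 (141 ± 2.27 against 104 ± 3.61 FPKM, 0.44) and MANF (0.37) leading.

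Among cell cycle genes the D cyclins and CDK inhibitors had 5 of 12 lower and none higher. CDKN1A, the inhibitor p21, was at 7.07, 7.38 and 6.26 against 16.4, 15.2 and 15.0 FPKM (-1.07 ± 0.06, adjusted p = 1.24e-06), with WT at 15.4 ± 0.392, and CDKN1B (-0.46), CDKN2C (-0.35), CDKN1C (-0.62) and CDK4 (-0.23) were lower too. After correction for position CDK4 was no longer called (-0.05, adjusted p = 0.292), and CDKN1B stood at -0.25 and CDKN2C at -0.15. G1/S genes gave 11 of 29 lower and 2 higher, among them PCNA (-0.34) and E2F1 (-0.45), both on chromosome 20, and MCM2 (133 ± 3.39 against 168 ± 4.72 FPKM, -0.33). After correction for position PCNA was no longer called (-0.07, adjusted p = 0.105) and E2F1 stood at -0.19, and MCM2 lost its call with all 24 libraries in the fit. G2/M genes were split, 5 of 27 higher and 6 lower, near the 16.6% and 19% of all genes. After correction for position 5 of them were higher and 2 lower. Of 17 p53 targets 3 were higher and 5 lower, beside the same shares of all genes. BBC3 (PUMA, 7.37 ± 0.579 against 14.7 ± 1.07 FPKM, -0.91), PLK3 (-0.96) and MDM2 (133 ± 1.65 against 183 ± 6.63, -0.46) were lower. The death receptor TNFRSF10B (45.6 ± 1.43 against 24.4 ± 1.04, 0.87) was higher.

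Interferon response genes had 3 of 21 higher and 5 lower, near the 16.6% and 19% of all genes. Of those lower, IFIT1 and IFIT5 were no longer called after correction for position. BST2, the tetherin that holds budding virions, was at 79.8, 67.6 and 65.6 FPKM in LATS dKO and 181, 176 and 174 in RAP2 tKO (-1.31 ± 0.07, adjusted p = 5.27e-07), with WT at 62.0 ± 2.96, so RAP2 tKO lay further above WT. Ribosomal proteins were higher in 10 of 32 and lower in 1, by at most 0.33 among the named ones except RPL10 (1351 ± 49.8 against 726 ± 14.1 FPKM, 0.89) on chromosome X. After correction for position RPL10 stood at 0.47, and RPS6 and RPL30 were no longer called. Oxidative phosphorylation genes were split, 8 of 25 higher and 5 lower. NDUFA1 (0.60), NDUFB8, ATP5B and ATP5C1 were no longer called after correction for position. CYC1 lost its call with all 24 libraries in the fit.

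The YAP/TAZ dKO and WT libraries on 1 kPa gave a contrast that shares no library with LATS dKO against RAP2 tKO. There 4063 genes were lower without YAP and TAZ (28.2%) and 3308 were higher (22.9%). Of the 2399 genes higher in LATS dKO than in RAP2 tKO, 885 (36.9%, or 21.8% of the 4063) were lower in YAP/TAZ dKO than in WT and 545 (22.7%) were higher. Of the 2748 genes lower in LATS dKO, 905 (32.9%, or 27.4% of the 3308) were higher without YAP and TAZ and 735 (26.7%) were lower. Among genes with differences of at least 2-fold the shares were 55 of 152 (36.2%) and 52 of 122 (42.6%). KRT19 and AP1M2 at 0.0831 and 0.0672 FPKM in YAP/TAZ dKO and LGR5 at 28.6 FPKM there belong to these sets.

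WT cells moved from 1 to 40 kPa gave a second contrast without shared libraries, in which 50 genes were higher on the stiff gel (0.347%) and 106 lower (0.735%). Of the 50, 24 (48.0%) were higher in LATS dKO than in RAP2 tKO on 1 kPa and 9 (18%) lower. Of the 106, 39 (36.8%) were lower and 18 (17.0%) higher. Among all genes tested, 16.6% were higher and 19% lower in LATS dKO than in RAP2 tKO. These sets held CTGF (6.55 ± 0.367 on 1 kPa and 22.5 ± 0.880 FPKM on 40 kPa in WT), CYR61 (14.8 ± 0.932 and 30.5 ± 2.19) and ANKRD1 (0.877 ± 0.239 and 4.02 ± 0.0673) as higher, and DDIT4 (10.3 ± 1.11 and 4.81 ± 0.294) and TSC22D3 (4.64 ± 0.493 and 2.87 ± 0.134) as lower. The count moved with single WT libraries and with the samples in the fit, as given in the closing section.

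On 40 kPa the same 2 lines gave 6 further libraries, and the fit of all 24 libraries called 2944 genes between them (20.4%). That fit called 3361 genes on 1 kPa, where the fit of 12 libraries called 5147. The 2944 and the 5147 therefore differ in the fit as well as in stiffness. Of the 5147 genes called on 1 kPa, 4479 (87.0%) had the same sign on 40 kPa and 2208 (42.9%) were also called there, against 71.1% with the same sign over all genes tested. Of the 274 with at least 2-fold, 255 (93.1%) had the same sign and 211 (77.0%) were called. Their median difference was 1.24 on 1 kPa and 0.96, in the same direction, on 40 kPa. On 1 and 40 kPa the differences were 3.21 and 3.21 for COL3A1, 3.05 and 3.16 for EDIL3, -4.87 and -4.46 for EMC10 and -2.79 and -2.31 for ETV4.

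The difference between the lines itself changed with stiffness in 26 genes (0.18% of those tested). ANKRD1 held 36.6 ± 2.19 FPKM in LATS dKO on 1 kPa and 51.1 ± 6.25 on 40 kPa, but went from 5.57 ± 0.443 to 32.4 ± 3.74 in RAP2 tKO. The gap between the lines thus shrank by 1.87 ± 0.14 on the log2 scale (adjusted p = 6.10e-07). CYR61 went from 123 ± 6.43 to 139 ± 21.2 FPKM in LATS dKO and from 51.1 ± 0.846 to 98.3 ± 8.38 in RAP2 tKO (change of the gap -0.77 ± 0.12, adjusted p = 0.0121). CTGF went from 70.7 ± 3.09 to 81.6 ± 3.35 and from 37.8 ± 0.716 to 59.7 ± 2.38 (-0.44 ± 0.08, adjusted p = 0.0181). In these 3 YAP targets RAP2 tKO came closer to the LATS dKO mean on the stiff gel but stayed below it. The differences on 40 kPa were 0.64 for ANKRD1, 0.485 for CYR61 and 0.44 for CTGF.

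EGR1 closed its gap from the other side, with LATS dKO at 3.0 ± 0.208 and 1.99 ± 0.554 FPKM and RAP2 tKO at 9.38 ± 0.745 and 1.72 ± 0.297 (1.5 ± 0.20, adjusted p = 0.00103). DDIT4, a stress-induced inhibitor of mTORC1, went from 12.1 ± 1.25 to 3.35 ± 0.720 FPKM in RAP2 tKO and only from 4.28 ± 0.283 to 3.30 ± 0.591 in LATS dKO (1.29 ± 0.16, adjusted p = 0.000342). TSC22D3, the glucocorticoid-induced leucine zipper gene, went from 5.09 ± 0.424 to 2.26 ± 0.135 FPKM in RAP2 tKO and from 1.64 ± 0.114 to 1.81 ± 0.161 in LATS dKO (0.99 ± 0.11, adjusted p = 0.000240). Replicate 3 of RAP2 tKO and replicate 1 of LATS dKO on 40 kPa deviated from their groups with GC content (rank correlation across genes -0.63 and -0.60). Without both, 125 genes were called in place of 26.

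**Figure D4:**
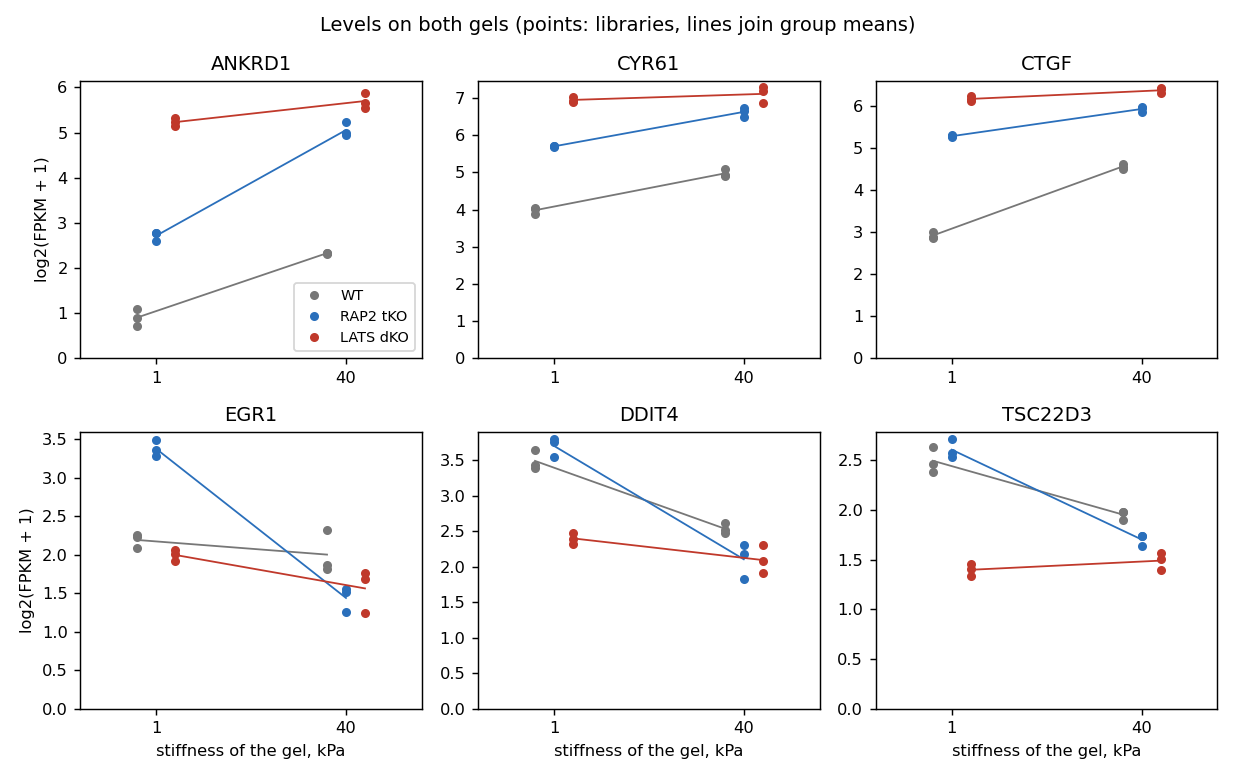
Level of 6 genes on 1 and 40 kPa (x axis, kPa) as log2(FPKM + 1) in WT, RAP2 tKO and LATS dKO, with a point for each of 3 libraries and lines joining group means. In ANKRD1, CYR61 and CTGF the blue RAP2 tKO line climbs towards the red LATS dKO line, and in EGR1, DDIT4 and TSC22D3 it drops towards it.

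Part of the difference between the lines followed chromosomes. On chromosome 20, 246 of 389 genes were lower in LATS dKO and 13 higher, with a median of -0.28, and the same median stood at -0.27 between LATS dKO and WT and at 0.01 between RAP2 tKO and WT. Chromosome 21 went the other way, with 72 of 153 genes higher and a median of 0.26. On chromosome X 201 of 467 genes were higher, and in hg19 from 100645812 to 153679002 the medians of successive blocks of 50 genes were 0.55, 0.59, 0.49 and 0.40. The first 50 tested genes of chromosome 8 had a median of 0.66, with 37 higher. Shifts were not confined to these stretches. On chromosome 10, 220 of 554 genes were lower (median -0.16), and on chromosome 12, 232 of 795 (median -0.10). The first 14 blocks of 50 genes on chromosome 1 had medians of -0.36 to -0.14. UNC5B, ZNF503 and DDIT4 lie on chromosome 10, and PLK3 and SDC3 in that part of chromosome 1. Medians on 40 kPa were close on these, at -0.25 on chromosome 20, 0.31 on 21 and 0.20 on X. Elsewhere some small medians changed sign, from -0.06 on 1 kPa to 0.05 on 40 kPa on chromosome 19 and from -0.04 to 0.02 on 16.

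After each library was corrected for a running median of genes along each chromosome, 3782 genes were called (1884 higher and 1898 lower), of which 3177 were among the 5147. The YAP, TAZ and TEAD signature then had 10 higher and none lower, ERK output 1 higher and 11 lower, and epithelial markers 8 higher and none lower. The cause of these shifts was not tested.

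**Figure D5:**
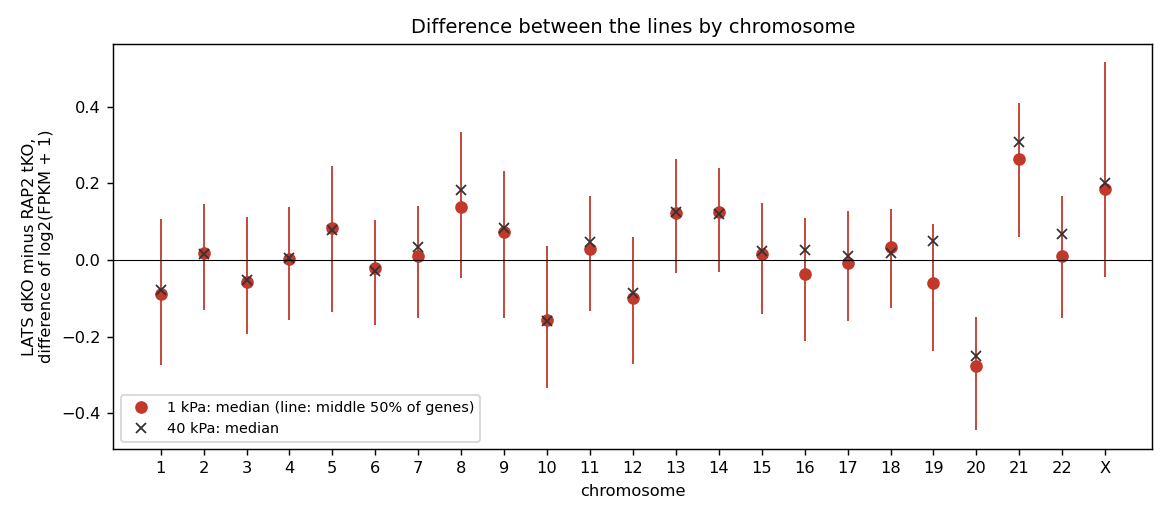
Median difference between LATS dKO and RAP2 tKO over the tested genes of each chromosome (y axis, difference of log2(FPKM + 1)), on 1 kPa (red points, with lines over the middle 50% of genes) and on 40 kPa (crosses). Chromosome 20 lies below 0 at -0.28 and chromosomes 21 and X above it at 0.26 and 0.19, on both gels in the same direction.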

How the data were processed

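RNA was measured in 24 libraries of HEK293A cells, 3 per group, and the 6 described here were compared with the fits below. The values are FPKM that the authors deposited per library, made with STAR 2.4.2a, Cufflinks 2.2.1 and build hg19 per the submitters' processing notes. No source names the annotation release or the strand setting. FPKM was summed per gene symbol, 92 symbols with a failed quantification status were left out (62 of them had passed the filter), and log2(FPKM + 1) was fitted with limma 3.58.1 (trend). The fit held the 12 libraries on 1 kPa. Stiffness terms came from all 24. Benjamini-Hochberg adjustment ran over 14429 genes, and adjusted p below 0.05 was called. Depth was estimated from the deposited confidence intervals, and low genes carry more counting error. Samples with the same number did not deviate together (correlations -0.04, -0.12 and -0.08), so the numbers were not taken as pairs.

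The comparison, its members and the gene lists were chosen with earlier results of these data known. Named genes were the 20 largest differences in each direction among called genes without overlap and with a mean of at least 5 FPKM in the higher line, leaving out short RNAs and clone names, up to 6 per list, the targeted and signature genes, and 5 genes in each direction for the change with stiffness. Other list members were named after their values were seen. On simulated data with the same design, 81 of 100 genes changed by 0.5 (log2) and 96 of 100 changed by 1 were recovered. The changed genes were drawn from those well above the filter, with independent noise and without shifts along chromosomes. These rates therefore do not describe genes near the filter. Alternatives covered normalization, filter, pseudocount, GC content, position, samples in the fit and left-out replicates. Some results that rest on withheld items are not reported here.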

Additional observations from a re-analysis of the deposited data

Results flagged for a closer look

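In 17 of the named genes the difference between LATS dKO and RAP2 tKO changed between 1 and 40 kPa by limma's test of that change, and each value below is the difference on 40 kPa minus that on 1 kPa (log2). Among YAP targets and cytoskeletal genes, the change was -1.87 for ANKRD1, -0.77 for CYR61, -0.44 for CTGF, -0.44 for FHL2 and -0.72 for TUFT1. The epithelial genes AP1M2 and RBM47 changed by -1.0 and -1.69. ATF3 changed by -0.94, UBE2QL1 by -0.90 and TMBIM1 by -0.56.

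Positive changes, where LATS dKO moved up relative to RAP2 tKO on the stiff gel, were 1.5 for EGR1, 1.29 for DDIT4, 0.99 for TSC22D3, 0.83 for RP3-512B11.3, 0.74 for HIST1H2AC, 0.65 for SAT1 and 0.53 for IDI1. RP3-512B11.3 is a clone name for a noncoding transcript in the files. Without both GC-skewed 40 kPa libraries, AP1M2 (adjusted p = 0.0502) and TMBIM1 (adjusted p = 0.0654) were no longer called by limma.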

How the results depend on the processing

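With all 24 libraries in the fit, 3361 genes were called in place of 5147, 1650 of them lower in place of 2748. Counts shared with YAP/TAZ dKO against WT then fell from 3070 to 1740, from 885 to 580 (higher in LATS dKO, lower without YAP and TAZ) and from 905 to 429 (the reverse), and position correction gave 1944 in place of 3070. The 274 genes of at least 2-fold became 153 with a filter of 5 FPKM and 509 with a pseudocount of 0.1. Genes that also respond to stiffness in WT numbered 90, but 264 with GC correction, 24 with only the groups compared, 522 without both GC-skewed 40 kPa libraries and 34 to 64 when single replicates were left out. The 26 genes whose difference changed with stiffness became 62 with GC correction, 7 with only the groups compared, 125 without both GC-skewed libraries and 9 to 57 when single replicates were left out, the 57 without LATS dKO on 40 kPa replicate 1 and the 9 without LATS dKO on 1 kPa replicate 2. Position correction reversed CDCA8 (0.0597), NDUFB8 (0.0067), NSDHL (-0.0491), RAP2C (-0.15) and TPX2 (0.0463). Beyond the smaller number of samples or genes some of these settings hold, the cause was not tested.

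With the replicate number as a block, 4925 genes were called (2316 higher and 2609 lower), 4736 of them shared with the 5147. The numbers do not pair the samples. Leaving out single replicates of the 2 lines on 1 kPa gave 4171 to 4493 calls, and 187 of the 246 called named genes kept their call in every setting in which they were tested. The leave-outs of WT and YAP/TAZ dKO libraries, chosen after seeing the data, gave 2655 to 2934 shared genes in place of 3070. With only the 6 compared libraries the shared count could not be fitted and was not run. Genes near 1 FPKM are limited most by depth.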
